A study of Mus musculus with 3 samples.

Results

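The septins were followed across the layers of the mouse main olfactory bulb, the first relay of smell in the brain. The members were the 9 septin genes Sept2, Sept3, Sept4, Sept5, Sept6, Sept7, Sept8, Sept9 and Sept11, of 19621 genes with counts. They were taken by gene symbol, and the family was put forward with its levels across the regions already known, so those levels are given here as a description. The study laid 3 coronal sections (C57BL/6J mice, 12 weeks of age) on high-density arrays that captured poly(A) RNA in place. The labels name no genetic change and no treatment, each section is 1 sample, and they do not say which animal each came from. The deposited annotation put spots into 9 nested regions, from outside to inside the olfactory nerve layer (ONL), glomerular layer (GL), external plexiform layer (EPL), mitral layer (M/T), internal plexiform layer (IPL), the external granule cell layer (GCL-E), the internal one (GCL-I), ependymal cell zone (E) and rostral migratory system (RMS).

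Septins are GTP-binding proteins that join into rods of several different subunits, and the rods join end to end into filaments, rings and gauzes under membranes. By sequence they fall into 4 groups, named for Sept2 (with Sept4 and Sept5), Sept3 (with Sept9), Sept6 (with Sept8 and Sept11) and Sept7, which stands alone, and a rod takes its subunits from different groups. In the brain, septins lie at the base of dendritic spines and branches, at presynaptic terminals and in the myelin sheath.

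All 9 members code for a P-loop, the part of the protein that holds the phosphates of GTP. A stretch of 57 coding bases per gene, read from the GENCODE M21 transcripts (mm10), held 22 bases that were the same in all 9 septins, given here in capitals. The stretch was located by the amino acid pattern of the P-loop, so some of the 22 were fixed by that choice. Shown are Sept3 and Sept9 of the Sept3 group, Sept7, and the myelin-associated Sept4 and Sept8, because the results turn on these members. The alignment shows how far they differ in this stretch, not over whole transcripts.
Sept3: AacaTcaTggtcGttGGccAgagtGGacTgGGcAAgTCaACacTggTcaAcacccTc
Sept9: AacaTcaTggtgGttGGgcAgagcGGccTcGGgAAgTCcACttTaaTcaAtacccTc
Sept7: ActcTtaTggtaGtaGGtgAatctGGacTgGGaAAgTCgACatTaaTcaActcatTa
Sept4: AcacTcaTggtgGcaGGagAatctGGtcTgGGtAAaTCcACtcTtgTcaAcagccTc
Sept8: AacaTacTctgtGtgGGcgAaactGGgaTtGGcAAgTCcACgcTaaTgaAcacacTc
Sept3 and Sept9 were identical at 78.9% of these positions, against 64.9% for Sept3 and Sept7 and 57.9% for Sept4 and Sept8. Sept4 was at 68.4% with both Sept3 and Sept7. Identity did not follow the groups throughout. Sept2 and Sept7, of different groups, were at 75.4%, and Sept2 and Sept5, of the same group, at 66.7%. Anywhere in their transcripts, the longest identical run was 55 bases between Sept2 and Sept7 and 41 between Sept4 and Sept5. For Sept3 it was 39 bases with Sept2, 34 with Sept11 and 33 with Sept9. A read shorter than such a run could not be placed in a single septin there, and the sources used here do not state the read length.

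The septins were counted rarely. Sections 1, 2 and 3 held 344260, 650393 and 505305 counts over all genes, and 350, 806 and 672 of these were septin counts. No spot held more than 3 counts of a septin, and 1, 2 and 5 spots held counts of 2 or more members. In the 9 regions together, Sept7 had 510 counts, Sept3 327, Sept4 244, Sept11 235, Sept8 227 and Sept2 121. Sept9, Sept6 and Sept5 had 60, 52 and 47 counts. These totals are not ranked as expression here, since differences in capture between transcripts and reads shared between genes may enter them. Levels below are CPM, each count scaled by the total of the same section and region, as mean ± SD over the 3 sections. An olfactory bulb layer mixes many cell types, so fewer cells of a type and less RNA per cell cannot be told apart. Markers were checked against the region names. The 6 olfactory sensory axon genes were highest in the ONL of every section, at 1675, 1514 and 1748 CPM, and the 9 granule cell genes were highest in the GCL-I or the GCL-E of every section. The 8 mitral and tufted cell genes were highest in the M/T of sections 2 and 3 and in the EPL of section 1.

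Section 1 stood apart from the others in its septins, as the plot of shares by section shows. Sept4 made up 33.1% of its septin counts (exact 95% binomial interval 28.2 to 38.3), against 8.08% and 9.42% in sections 2 and 3. Sept3 made up 5.71% (3.53 to 8.69) of the septin counts of section 1, against 20.0% and 21.8%. Over all regions Sept3 was at 58.1, 249.7 and 291 CPM in sections 1, 2 and 3, Sept2 at 20.3, 102 and 95.6 CPM, and Sept4 at 337, 101 and 126 CPM. Sept5 had 1, 24 and 22 counts. Sept11 (151, 149 and 173 CPM), Sept8 (163, 152 and 145 CPM) and Sept6 (37.8, 35.7 and 31.9 CPM) were close to one another in all 3 sections. Marker levels differed between the sections too: 10 astrocyte genes summed to 5226, 10734 and 10021 CPM, 10 myelinating oligodendrocyte genes to 4395, 2599.7 and 2815 CPM, and 8 mitral and tufted cell genes to 2501, 1505 and 1544 CPM. Their part in the septin difference was not tested. These intervals cover counting error only.

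**Figure D1:**
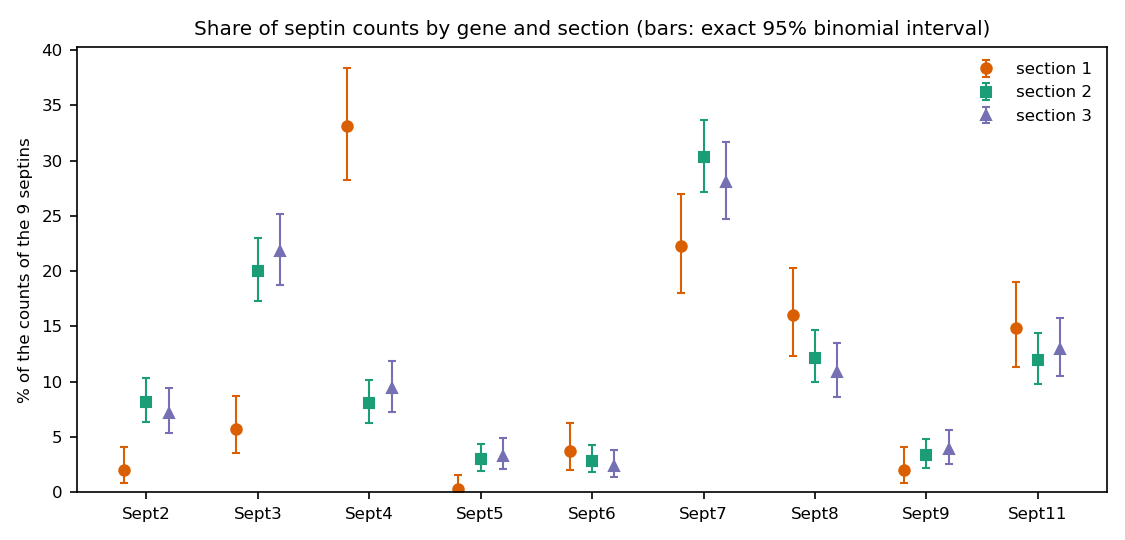
Share of each septin in the septin counts of a section, in percent, with exact 95% binomial intervals as bars (counting error only). Section 1 has 33.1% Sept4 and 5.71% Sept3, while in sections 2 and 3 Sept3 takes 20.0% and 21.8% and Sept4 under 10%.

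Sept3 and Sept9 form the Sept3 group. Sept3, a neuronal septin found at presynaptic terminals (chromosome 15, 82274893 to 82294574, plus strand), was highest on average in the EPL and the GL, although the highest region differed between sections. It was the ONL (193 CPM, from 3 counts) in section 1, the GL (371) in section 2 and the M/T (406) in section 3. In the EPL, the layer where dendrites of mitral and tufted cells meet those of granule cells, it was at 82.5, 339 and 375 CPM (266 ± 159.6), from 6, 62 and 47 counts. In the GL, where olfactory axons contact those dendrites, it was at 61.2, 371 and 348 CPM (259.9 ± 173). The spread comes largely from section 1, which was lowest in both layers. Next came the M/T at 213 ± 175 CPM, the ONL at 184 ± 39.2 and the E at 156 ± 104. The levels were lower in the GCL-I (98.9 ± 81.5), the GCL-E (88.8 ± 77.3) and the IPL (81.1 ± 71.0), and in the RMS Sept3 had no count in any section. Neighbours in this order overlapped in their ranges over sections, except the IPL and the RMS. The RMS total was 22903 counts, 16285 of them from section 1, and 0 counts allow up to 131 CPM (3 counts of the total), so the absence there says little. The mean of the EPL was 2.69 times that of the GCL-I, and 2.77, 1.98 and 4.02 times when section 1, 2 or 3 was left out.

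Sept9, which bundles microtubules (chromosome 11, 117199661 to 117362325, plus strand), had its highest mean in the ONL, the layer of incoming olfactory axons and ensheathing glia. It stood at 64.4, 56.6 and 109 CPM there, from 1, 4 and 6 counts (76.8 ± 28.4). Means then went down to 47.8 ± 32.2 in the GL, 32.6 ± 24.4 in the EPL and 19.8 ± 17.3 in the M/T. Of the regions further in, the GCL-E, at 45.3 ± 47.3 CPM from 3 counts, and the E, at 31.9 ± 19.5 from 7 counts, had higher means than the M/T. No neighbouring regions in the order of Sept9 levels had ranges that did not overlap.

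Sept7 is the only member of its group and a subunit of most septin rods (chromosome 9, 25252439 to 25308571, plus strand). It was counted in every region of every section. Its EPL levels were 206, 504 and 495 CPM (402 ± 169), its GL levels 163, 357 and 439 CPM (319.7 ± 142) and its ONL levels 129, 382 and 182 CPM (231 ± 134), the lowest mean. Between these lay the M/T (314 ± 80.8), the IPL (306 ± 58.0), the GCL-E (284 ± 96.7), the GCL-I (283 ± 93.4) and the E (258 ± 77.9). The RMS mean of 481 ± 179 CPM was above that of the EPL but rests on 6, 2 and 1 counts. All neighbours in this order overlapped. In section 1 the GCL-I held the highest Sept7 level, 389 CPM, against 206 in its EPL, while in sections 2 and 3 the EPL (504 and 495) was above the GCL-I (247 and 213).

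**Figure D2:**
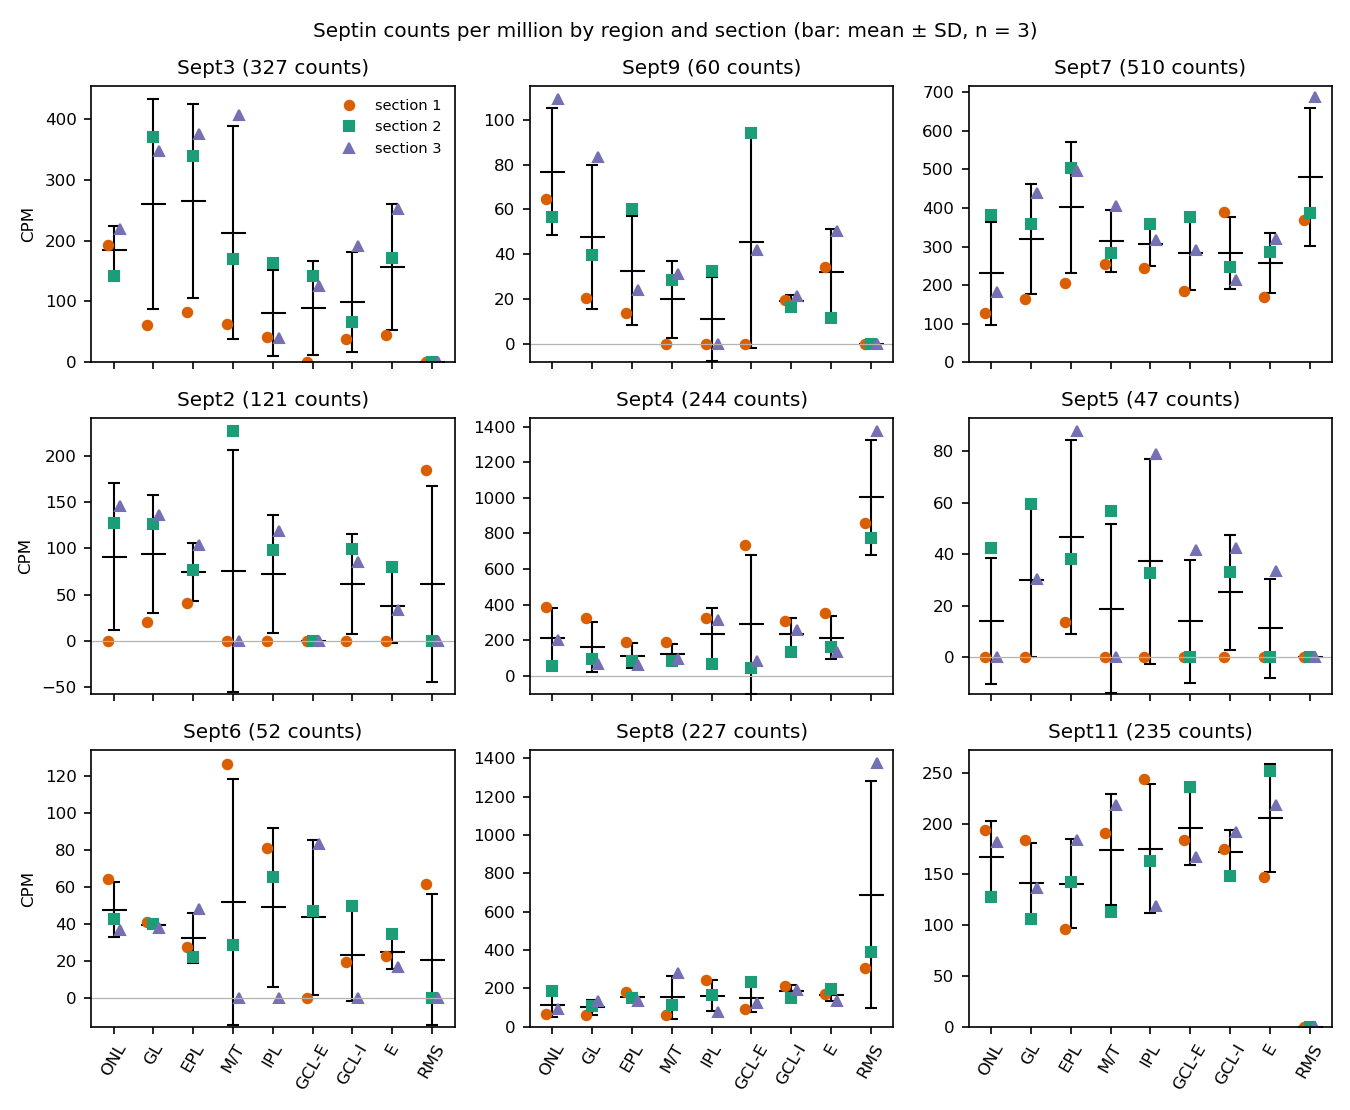
Level of each septin (CPM, linear axes that differ between panels) in the 9 regions from outside to inside, with each section as a point and bars at the mean ± SD (n = 3); some bars reach below 0 because of the spread, and no level does. Sept3 is highest on average in the EPL and GL, Sept4 and Sept8 in the RMS, and Sept11 stays between 141 and 206 CPM on average outside the RMS.

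The Sept2 group had 3 members with unlike patterns. Sept4, known in glia and in myelin (chromosome 11, 87568903 to 87590539, plus strand), was at 859.7, 775 and 1374 CPM in the RMS, from 14, 4 and 2 counts (1003 ± 324). This was above its level in every other region of the same section. Its lowest mean was that of the EPL, with 193, 82.1 and 63.8 CPM (113 ± 69.7), and the M/T was close at 123 ± 58.5. Both deeper and outer regions lay between. Means were 236 ± 148 CPM in the IPL, 233 ± 91.8 in the GCL-I and 215 ± 119 in the E. They were 214 ± 165 in the ONL and 162 ± 142 in the GL. In section 1 the ONL, at 386 CPM from 6 counts, was above the IPL, the GCL-I and the E. The GCL-E mean of 289 ± 388 was set by section 1, with 737 CPM against 47.1 and 83.3. Sept2 (chromosome 1, 93478964 to 93510260, plus strand), a subunit that binds the glial glutamate transporter Slc1a3, was at 94.1 ± 64.0 CPM in the GL, 91.0 ± 79.4 in the ONL and 73.9 ± 31.3 in the EPL. It had no count in the GCL-E, where 0 of 56070 counts allow up to 53.5 CPM. The annotation lists a second gene model under the symbol Sept2 over nearly the same span, and the files do not separate them.

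Sept5, a septin of synaptic vesicles (chromosome 16, 18620502 to 18629954, minus strand), had its highest mean in the EPL, 46.6 ± 37.7 CPM, from 1, 7 and 11 counts. Its exons share 1902 bases on the same strand with Gp1bb, which had 54 counts, so reads of these genes may have been divided between them and the values of Sept5 are uncertain. Sept5 had 0 counts in the RMS, which allows up to 131 CPM.

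In the Sept6 group, Sept11, known at inhibitory synapses and in dendrites (chromosome 5, 93093437 to 93176447, plus strand), had means from 141 ± 43.7 CPM in the EPL to 206 ± 53.2 in the E across the 8 regions other than the RMS. Its ranges over sections overlapped between all neighbours in that order. In the RMS it had no count. Sept8 (chromosome 11, 53519257 to 53549565, plus strand), found at synaptic vesicles and in myelin, ran from 101 ± 37.7 CPM in the GL to 185 ± 33.3 in the GCL-I. In the RMS it was at 307, 387 and 1374 CPM (689 ± 594), from 5, 2 and 2 counts, which did not overlap the GCL-I. Sept6 (chromosome X, 36911326 to 36991794, minus strand) lay between 20.5 ± 35.5 CPM in the RMS and 51.7 ± 66.6 in the M/T, from 52 counts in all. In the GL, where it had 13 counts, its levels were 40.8, 39.7 and 37.8 CPM.

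Over the whole family, the 81 levels gave 72 neighbouring pairs in the order of each gene's regions, and 4 of these did not overlap over the sections. All 4 involved the RMS, as the top region of Sept4 and of Sept8 and as the region without counts of Sept3 and Sept11. The RMS totals were 16285, 5162 and 1456 counts in sections 1, 2 and 3. Pairs without overlap were not counted over all genes, so nothing particular to septins is read from the 4. The summed level of the 9 septins ranged only from 1100 ± 139 CPM in the GCL-I to 1260.5 ± 357 in the EPL outside the RMS, where it was 2255 ± 1028.

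A coarser view, chosen after the levels were seen, pooled the 4 outer regions (ONL to M/T) and the 5 inner ones (IPL to RMS). Sept3 was higher outside in all 3 sections, at 84.9, 305 and 343 CPM against 36.6, 132 and 178, which is 2.32, 2.31 and 1.93 times. In section 1 the Sept3 ratio rests on 20 counts, and a difference between the sections was not tested. Sept2 was also higher outside in 3 of 3 sections, by 1.67, 1.46 and 1.98 times. Its ratio in section 1 rests on 4 counts outside and 3 inside. Sept4, Sept8 and Sept11 were lower outside in 3 of 3 sections, Sept4 at 0.63, 0.58 and 0.44 times its inner level. The ratios of Sept8 were 0.59, 0.74 and 0.93, and those of Sept11 were 0.92, 0.63 and 0.91, some of them near 1. Genes with 1 direction in all sections were not counted over all genes, so nothing particular to septins is read from these directions. The remaining 4 members were mixed, and for Sept7 the ratio was 0.74 in section 1 and 1.40 and 1.45 in sections 2 and 3. The map of section 2 shows spots with Sept3 counts in the outer layers and few over the granule cells. Its points are not scaled by the total counts of a region.

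**Figure D3:**
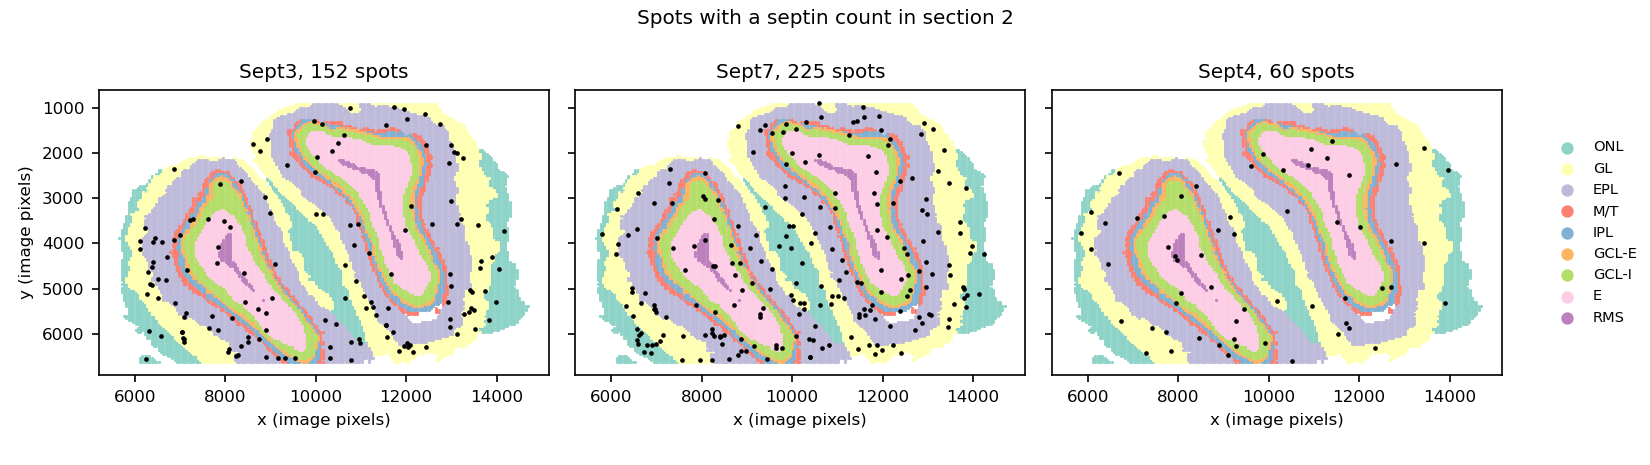
Position (image pixels) of spots with at least 1 count of Sept3, Sept7 or Sept4 in section 2, as black points over the 9 annotated regions in colour. Sept3 (152 spots) and Sept7 (225 spots) both lie mostly over the 4 outer regions, with 134 and 183 counts against 27 and 61 in the 5 inner ones. Sept4 (60 spots) has 36 counts in the outer and 29 in the inner regions. The points are not scaled by the total counts of a region.

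The count model put these levels against all other genes. In edgeR's quasi-likelihood test with section as a block, 466 of 1996 genes (23.3%) differed among the 9 regions at an adjusted p under 0.05. The low-count filter kept 5 septins, Sept3, Sept4, Sept7, Sept8 and Sept11, and 2 of them, Sept3 and Sept4, were among those called. The number of genes called was 174 without section 2 and 235 without section 3, and Sept4 was not called without section 1, 2 or 3 (edgeR adjusted p 0.15, 0.0644 and 0.149), with the RMS left out (0.408) or with no filter on low counts (0.604). Against the mean of the other 8 regions, the EPL had 234 of 1996 genes called (11.7%), of which 205 (10.3%) were higher and 29 (1.45%) lower; 98 were called without section 2 and 114 without section 3. With scaling by library sizes alone the split was 105 higher and 90 lower, and the median of all genes moved from 0.09 to -0.10 on the log2 scale. Sept3 and Sept7 were called higher and Sept4 lower. Since the family was chosen on these levels, nothing is read from these calls. The fitted log2 difference of Sept3 was 1.77 (SE 0.33), and 1.09 with the RMS, where it has no count, left out. That of Sept7 was 0.62 (SE 0.18), and it was no longer called under library-size scaling (0.39), without section 2 (0.54) or section 3 (0.50), or with DESeq2 (0.59). That of Sept4 was -0.82 (SE 0.29). It was not called without section 1 (-0.73), section 2 (-1.04) or section 3 (-0.62), with DESeq2 (-0.83), without the RMS (-0.60), with no filter on low counts (-0.46) or with spots joined by name (-0.78), and it was 0.80 when spots within 5 array positions of another region were left out. The median EPL difference of all genes was 0.66 in that last setting and 0.57 with no filter on low counts. Without section as a block no septin was called in either comparison.

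Position within a layer was not used to choose the septins and can be tested. Each spot's relative depth was its distance to the outer neighbouring layer over the sum of its distances to both neighbours, and the layer was divided at a depth of 0.5. Sept3 was higher in the outer than in the inner EPL in every section, at 120.2, 413 and 495 CPM against 50.7, 261 and 248. In section 1 this rests on 4 counts against 2. In the GL the order was the other way. The outer part had 0, 212 and 266 CPM, and the inner part 96.6, 466 and 396. Section 1 had 0 counts in the outer and 3 in the inner GL. Among these 4 parts, Sept3 was highest in the inner GL and the outer EPL in all sections. Other regions reached similar or higher levels, with 193 CPM in the ONL of section 1 and 406 in the M/T of section 3. Neither difference passed the test over all genes. For the EPL the log2 difference was 0.80 (SE 0.32), with an edgeR p of 0.0125 and an adjusted p of 0.994. For the GL it was -0.87 (SE 0.37), with an edgeR p of 0.0177 and an adjusted p of 0.647. With the middle of each layer left out, the values were 1.04 and -1.37, again without passing.

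Sept7 was at 270.4, 487 and 711 CPM in the outer EPL and at 152, 521 and 264 in the inner part. The log2 difference was 0.52 (SE 0.27; edgeR p 0.0498, adjusted p 0.994), and it was 0.05 without section 3. In the GL Sept7 was higher in the outer part in 3 of 3 sections, at 222, 442 and 471 CPM against 129, 307 and 419.9 (log2 0.42, SE 0.31, edgeR adjusted p 0.855). Sept11 was lower in the outer GL in 3 of 3 sections, at 111, 70.7 and 123 CPM against 225, 127 and 144. These rest on 2, 4 and 6 counts against 7, 12 and 12, and Sept11 did not pass the low-count filter there. Sept2 was higher in the outer GL in 3 of 3 sections, with 55.6, 177 and 205 CPM against 0, 95.3 and 96.0. It was also below the filter, with 1, 10 and 10 counts against 0, 9 and 8. Genes with 1 direction in all sections were not counted over all genes here. Nothing particular to septins is therefore read from these directions, or from those of Sept3 and Sept7. In the GCL-I, Sept3 was at 37.2, 60.2 and 156 CPM in the outer and 40.9, 73.1 and 234 in the inner part (log2 -0.44, SE 0.79, edgeR adjusted p 0.977).

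No septin passed in any of the 3 layers, but the low-count filter left only some of the 9 to test. These were 5 in the EPL, 4 in the GL and 3 in the GCL-I, so nothing is shown for the others. Across the 1898 genes tested in the EPL 0 were called (0%), with 78 at an unadjusted edgeR p under 0.05 and 0 called by DESeq2. In the GL 6 of 1805 were called (0.332%), all higher in the outer part. They were led by Kctd12 (log2 1.80, SE 0.29) and Apod (log2 1.30, SE 0.22), a marker of olfactory ensheathing glia. Kctd12 was no longer called without section 3 (log2 1.54) and Apod without section 2 (log2 1.13), and in all 1 gene was called without section 2 and 1 without section 3. In the GCL-I 0 of 1091 were called (0%), with 51 at an unadjusted edgeR p under 0.05 and 0 called by DESeq2.

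**Figure D4:**
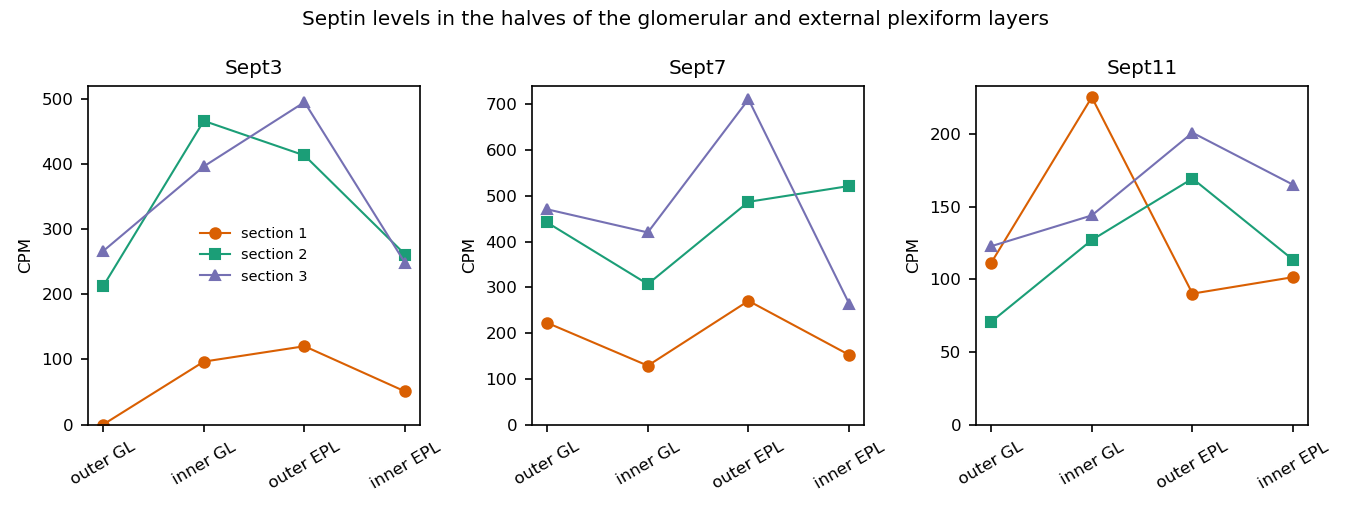
Levels (CPM) of Sept3, Sept7 and Sept11 in the outer and inner parts of the GL and EPL, with lines joining the values of a section. Among the 4 parts plotted, Sept3 is highest in the inner GL and outer EPL in each section. The values are 96.6 and 120.2 CPM in section 1 (from 3 and 4 counts), 466 and 413 in section 2, and 396 and 495 in section 3.

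Septins act with other proteins of the cell cortex and the synapse, and a list of 34 such partners was set beside them. The filter kept 9, of which 5 differed among the regions (edgeR adjusted p under 0.05, against 23.3% of all genes). Slc1a3, the glial glutamate transporter that binds Sept2, was the only partner called in the EPL (against 11.7% of all genes), where it was higher by 0.92 on the log2 scale (SE 0.13). It also belongs to the astrocyte marker list, of which 8 of 9 tested genes were called higher in the EPL, with a median of 0.92. Its EPL levels were 440.2, 1916 and 2211 CPM, and section 1 was again the lowest. Snap25, a presynaptic fusion protein, averaged 4110.1 ± 174 CPM in the M/T and 1588 ± 423 in the ONL. Map4, a microtubule-binding protein that interacts with septins, was highest on average in the M/T (747 ± 47.6) and lowest in the GCL-I (348 ± 81.2). Slc1a3 stayed called among the regions with any section left out. Snap25 was not called without section 2 (edgeR adjusted p 0.102). Map4 was not called without section 2 or section 3 (edgeR adjusted p 0.269 and 0.160). The median EPL difference of the 9 was 0.03, against 0.09 over all genes.

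Of 27 genes of the actin and spectrin membrane skeleton, 18 were tested and 4 differed among the regions (Tmod2, Add3, Capzb and Pfn2), near the 23.3% of all genes. Tmod2 stayed called with any section left out, while Add3 was lost without section 2 or 3 (edgeR adjusted p 0.134 and 0.779) and with DESeq2 (0.0611), Capzb without section 2 (0.542) and Pfn2 without section 1, 2 or 3 (0.167, 0.397 and 0.0666), under library-size scaling (0.073) and with boundary spots left out (0.071). In the EPL 2 of the 18 were called, both higher, near the 10.3% of all genes called higher. Tmod2, which caps the slow-growing ends of neuronal actin filaments, differed by 0.90 (SE 0.18), and Epb41l1, a spectrin-actin linker, by 0.54 (SE 0.18). Epb41l1 was not called under library-size scaling (0.32) or RLE scaling (0.50), without section 2 (0.36) or section 3 (0.54), or with DESeq2 (0.51). Without section as a block none of the partners or membrane skeleton genes named here was called. The median of the 18 in the EPL was 0.17, against 0.09 over all genes.

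Among 418 genes with at least 500 counts, those most like a septin were ranked by Pearson's r over the 9 regions, on the log2 scale with 10 CPM added. The points share their sections and depth, so r is a description. Prkacb, a catalytic subunit of protein kinase A, and Tmod2 were most like Sept3, with r of 0.971 and 0.970, and 0.892 and 0.890 over 8 regions without the RMS. Tspan7, a tetraspanin, and Macf1, a linker of actin and microtubules, were most like Sept7 (0.895 and 0.884, and 0.783 and 0.762 without the RMS). For Sept11, Cadm2 and Pebp1 reached 0.990 each, but 0.740 and 0.663 without the RMS, so much of that likeness comes from its lack of counts in this region. Gm12918 and Rplp1 were nearest to Sept4 (0.974 and 0.939, then 0.808 and 0.580), and Rpl31-ps8 and Rpl9 to Sept8 (0.963 and 0.952, then 0.736 and 0.696). Rplp1, Rpl31-ps8 and Rpl9 belong to ribosomal protein families with near-identical copies, where counts are uncertain.

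Septin filaments made of Sept2, Sept4, Sept7 and Sept8 line the innermost turn of central myelin, so these members were set beside 10 genes of myelinating oligodendrocytes, all of which had counts. The summed myelin level averaged 7991 ± 4211 CPM in the RMS and was lowest in the M/T (1991 ± 642) and the EPL (2363 ± 649.6). In the RMS it was 12649.7, 4456 and 6868 CPM in sections 1, 2 and 3, while Mog, one of its defining genes, had 0 counts. Over the regions, r with this sum was 0.878 for Sept4, 0.730 for Sept8, 0.273 for Sept7 and -0.301 for Sept2. Without the RMS it was 0.749 for Sept4, 0.175 for Sept8, -0.574 for Sept7 and -0.206 for Sept2. The likeness was not to myelin alone: over the same 8 regions, r with 9 granule cell genes was 0.704 for Sept4 and 0.674 for Sept8. The RMS of section 1 had the highest myelin level of the 27 sums with 859.7 CPM of Sept4, and the RMS of section 3, with 6868 CPM of myelin genes, had 1374 CPM of Sept4 from 2 counts. Section 2 went the other way, with the highest myelin level in the IPL (4633 CPM), where Sept4 was at 65.3 CPM, against 4456 CPM and 775 CPM of Sept4 in its RMS. The part of oligodendrocyte content in the levels of Sept4 was not tested.

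**Figure D5:**
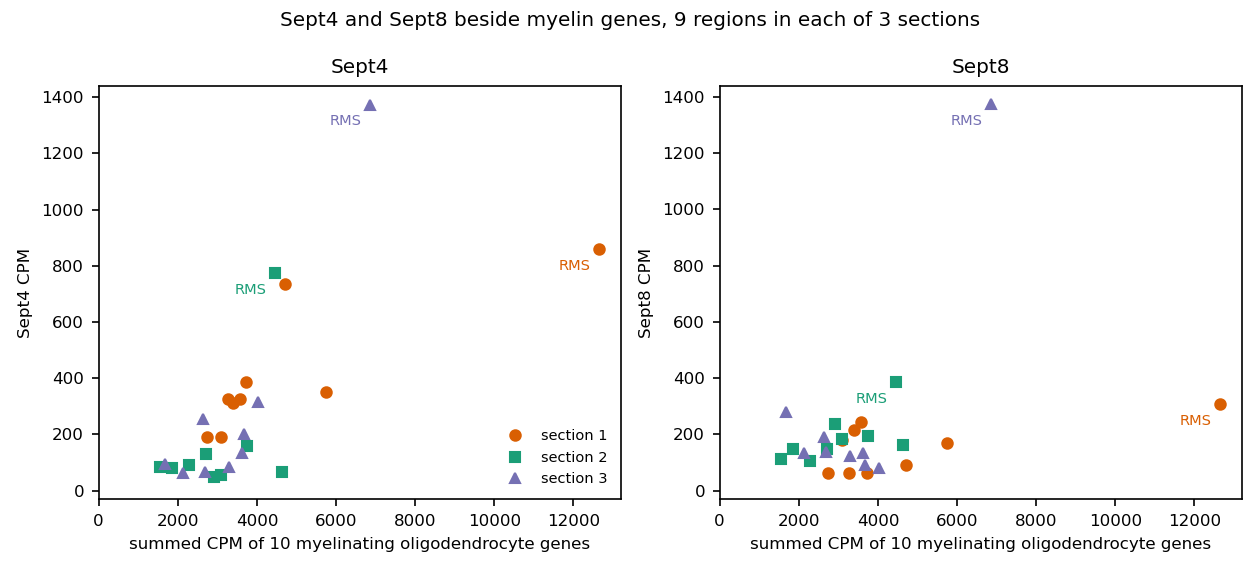
Sept4 and Sept8 (CPM) against the summed level of 10 myelinating oligodendrocyte genes (CPM), with 1 point per region and section, 27 in all. The RMS points stand to the right or at the top, and over the 8 other regions Sept4 follows the myelin sum (r 0.749 on region means) more than Sept8 does (r 0.175).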

How the data were processed

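The authors deposited, per spot under tissue, raw transcript counts by gene, and a table of spot positions and regions. Per the submitters' processing notes the genome build was mm10; the sources used here do not state the aligner, counter or use of molecular identifiers. Spots were matched to regions by pixel position (100% of entries), and counts summed into 27 sums per section and region. Counts without a gene name (0.0325%, 0.0764% and 0.0801%) and of unknown region stayed out. edgeR 4.0.16 (R 4.3.3; quasi-likelihood, TMM, filterByExpr with a minimum count of 10, Benjamini-Hochberg, threshold 0.05) was fitted over all genes, with section as a block because sums from 1 section come from the same tissue. Layers were divided within 30 sums. The steps were checked on simulated data. The members and gene lists were chosen with earlier results of these data known. Named were all 9 septins, list genes past the threshold, and the 2 genes most like each septin with at least 200 counts; some genes this rule takes are not reported here. With section as a block, p-values measure how far differences between regions vary from section to section, and overall differences between sections are taken out. The labels do not give the animals, so p-values cannot be read as a spread between animals. Alternatives included DESeq2 1.42.0. Positions are from GENCODE M21, which held 99.8% of symbols. The depth of 344260 to 650393 counts a section limits precision.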

Additional observations from a re-analysis of the deposited data

Results flagged for a closer look

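Septin counts were found outside the 9 members and outside the annotated regions. Sept10 had 16 counts over the 3 sections (1, 6 and 9) and Sept1 had 9 (2, 4 and 3), each above the 3 counts used as a limit, and Sept12 and Sept14 had 0. The lowest member, Sept5, had 47 counts. In spots of unknown region lay 5 counts of the 9 septins.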

How the results depend on the processing

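Low counts limit what can be seen: a single count in the RMS of section 3 is 687 CPM. The number of genes differing among the 9 regions (466) was 732 with no filter on low counts, 40 without the section block that pairs the sums, and 174 to 500 when a section was left out (174 without section 2, 235 without section 3). For the EPL (234) it was 839 with no filter, 4 without the block, 143 with DESeq2, and 98 to 242 with a section left out (98 without section 2, 114 without section 3). Between the outer and inner EPL (0) it was 1 with library sizes alone and 1 without the RMS, both added after the data were seen, and 0 to 0 with a section left out. For the GL (6) it was 3 with no filter, 0 without the block, 2 with DESeq2, 10 with the middle of the layer left out, and 1 to 8 with a section left out (1 without section 2 and 1 without section 3). In the GCL-I it was 0 throughout, and 0 to 0 with a section left out.

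Some septins changed sign in log2 differences; the cause was not tested. Against the other regions the EPL value of Sept8 (-0.034) was 0.33 with no filter, 0.11 without the RMS, 0.022 with spots joined by name, and -0.11 to 0.082 with a section left out (above 0 without section 2 or 3); Sept11 (0.68) was -0.074 without the RMS; Sept4 (-0.82) was 0.80 with boundary spots left out. The median EPL difference of all genes tested moved as well, from 0.09 to 0.57 with no filter and to 0.66 with boundary spots left out. Between the outer and inner EPL, Sept4 (-0.080) was -0.48 to 0.15 with a section left out (above 0 without section 2 or 3). Sept8 (-0.19) was -0.60 to 0.19 there (above 0 without section 2) and 0.016 with the middle left out. In the GL Sept4 (-0.37) was 0.33 with the middle left out. In the GCL-I, Sept4 (0.094) was -0.28 to 0.47 and Sept7 (0.082) was -0.39 to 0.32 with a section left out, both below 0 without section 1. Of 81 region levels, 20 moved by more than 1 SD with boundary spots left out and 3 with spots joined by name. With 3 sections, leaving out 1 cannot move a mean by 1 SD, so that comparison says nothing here.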
